A study of Mus musculus with 32 samples.

Results

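Taf5l and Taf6l are the 2 genes knocked out in this study of mouse embryonic stem (ES) cells, and the ChIP-seq peaks listed around them are described here. The peaks are all deposited peaks that overlap, by at least 1 bp, 1 of 2 windows of the mouse genome build mm9, chr8:126515000-126550000 for Taf5l (35 kb) and chr19:8840000-8865000 for Taf6l (25 kb). Of the 387563 peaks in 26 lists, 77 met this rule, 39 in the Taf5l window and 38 in the Taf6l window. The Taf5l window was chosen by the presence of RNA polymerase II peaks in Taf5l-KO cells that wild type lacks, so the fold enrichments of those peaks are given as a description.

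The libraries are chromatin immunoprecipitations (ChIP-seq) from line J1, a mouse ES cell line grown with serum and LIF, in 3 genotypes labelled Taf5l KO, Taf6l KO and WT, called Taf5l-KO, Taf6l-KO and wild type here. Each genotype was precipitated once with antibodies to 7 targets, namely 2 factors (Myc and Oct4), 2 modifications of histone H3 (acetylated lysine 9, H3K9ac, and trimethylated lysine 4, H3K4me3), and 3 for RNA polymerase II, labelled RNAP, RNAP-ser5 and RNAP-ser2. The suffixes name serine 5 and serine 2 of its C-terminal repeats, which are phosphorylated. In a further set, called bioChIP, chromatin was precipitated on streptavidin beads in 2 libraries of TAF5L-FB (A5 and A6), 2 of TAF6L-FB (15 and 9) and 1 of BirA, all labelled WT in genotype. How the knockouts were made and how many clones they come from is not given in the sources used here, so the spread between clones is unknown, and with no expression data the ES cell label was not checked against markers.

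TAF5L and TAF6L resemble the TFIID subunits TAF5 and TAF6. They sit in the core of SAGA, a coactivator that carries the acetyltransferase GCN5 and acetylates histone H3, lysine 9 included. H3K4me3 marks the starts of active genes, serine 5 phosphorylation is highest on polymerase near those starts, and serine 2 phosphorylation accompanies elongation into the gene. Myc binds the E-box CACGTG with its partner Max, and Oct4 is the POU factor of pluripotent cells.

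The promoters of both genes are shown because Myc, which reads CACGTG, was listed in the Taf5l window and not in the Taf6l window. RefSeq holds 2 starts for Taf5l and 1 for Taf6l, each given here from 250 bases before to 50 bases after the start. They lie on the minus strand at chr8:124021348-124021647 and chr8:124021007-124021306 for Taf5l and at chr19:8786267-8786566 for Taf6l. These positions are in build GRCm38.p6 and cannot be compared with the mm9 positions of the peaks. Capitals mark matches to CACGTG, which reads the same on both strands.
Taf5l, first entry: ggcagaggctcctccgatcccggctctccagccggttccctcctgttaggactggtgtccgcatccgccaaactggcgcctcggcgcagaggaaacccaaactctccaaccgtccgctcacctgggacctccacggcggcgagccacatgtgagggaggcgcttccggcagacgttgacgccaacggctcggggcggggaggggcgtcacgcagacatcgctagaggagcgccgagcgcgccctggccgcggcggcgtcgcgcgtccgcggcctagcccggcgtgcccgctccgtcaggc
Taf5l, second entry: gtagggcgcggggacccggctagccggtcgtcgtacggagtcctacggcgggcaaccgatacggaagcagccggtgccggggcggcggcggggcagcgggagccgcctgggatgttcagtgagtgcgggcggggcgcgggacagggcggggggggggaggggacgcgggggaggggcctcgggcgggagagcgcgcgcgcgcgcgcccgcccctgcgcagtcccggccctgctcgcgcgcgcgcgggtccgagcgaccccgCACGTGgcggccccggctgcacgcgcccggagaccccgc
Taf6l: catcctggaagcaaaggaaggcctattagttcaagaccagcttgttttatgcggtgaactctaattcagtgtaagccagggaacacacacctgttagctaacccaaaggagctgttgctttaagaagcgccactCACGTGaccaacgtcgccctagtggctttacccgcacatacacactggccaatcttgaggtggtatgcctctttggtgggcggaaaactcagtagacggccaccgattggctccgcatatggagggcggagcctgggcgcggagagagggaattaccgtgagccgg
CACGTG occurs once in the second Taf5l entry, from 12 bases after the start, and once in the Taf6l promoter, from 116 bases before the start, and is absent from the first Taf5l entry. Of 32851 promoters of this length, 7.15% hold it. The octamer ATGCAAAT, searched on both strands as a motif read by Oct4, occurs in none of these 3 entries and in 1.74% of all. The Taf5l entries hold 40 and 53 CG dinucleotides and the Taf6l promoter 15, against a median of 7 over all promoters.

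In the same gene table Taf5l stands head to head with Urb2, whose RefSeq promoter shares 199 and 60 bases with the first and second Taf5l entries. Abcb10 is the next gene on its other side. Taf6l overlaps the neighbouring Tmem179b, beyond which lies Tmem223, and Polr2g, a polymerase subunit gene, is next on its other side. A peak at such a shared start cannot be split between both genes, and no annotation of build mm9 was used, so the peaks below are named by window and position.

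The 21 antibody libraries held 1702363 to 22968606 unique tags and the 5 bioChIP libraries 18292747 to 27775010. The shallowest was RNAP-ser5 in Taf6l-KO, and each larger ChIP or input library was scaled down to its partner before calling. Duplicate tags made up 53.2% (RNAP in Taf5l-KO) to 92.6% (RNAP-ser5 in Taf6l-KO) of the polymerase libraries. For RNAP the share was 75.1% in Taf6l-KO and 80.1% in wild type, so it differed by genotype. Values of a peak are its width and the fold enrichment over the local input background that the authors' peak caller gave, ranked within its own list. Because the lists differ in length and depth, a rank in one list against a rank in another shows no change. With 1 library per antibody and genotype, no difference between genotypes has a replicate check and no test was made. A missing peak means that none passed the caller's threshold, not that nothing was bound, and the lists hold no transcript or protein level that would check the knockouts.

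In the Taf5l window 1 place held H3K4me3 together with polymerase in Taf5l-KO, in Taf6l-KO and in wild-type cells, and is called promoter-like for that reason. It spanned chr8:126543120-126546549 and had RNAP, RNAP-ser5 and RNAP-ser2 in each genotype. Wild-type cells alone also had Myc and H3K9ac listed there, so that 4 of the 7 antibodies were listed in each knockout and 6 in wild type. The H3K4me3 peak was 2796 bp wide in Taf5l-KO, 3303 bp in Taf6l-KO and 3396 bp in wild type, against list medians of 787, 785 and 788 bp. Its fold enrichment was 9.25 in Taf5l-KO (rank 8152 of 32098), 10.5 in Taf6l-KO (rank 6322 of 29463) and 8.95 in wild type (rank 6446 of 32370). It was thus a broad peak in the upper part of each list, and it was also listed in the library labelled Taf5l-KO.

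**Figure D1:**
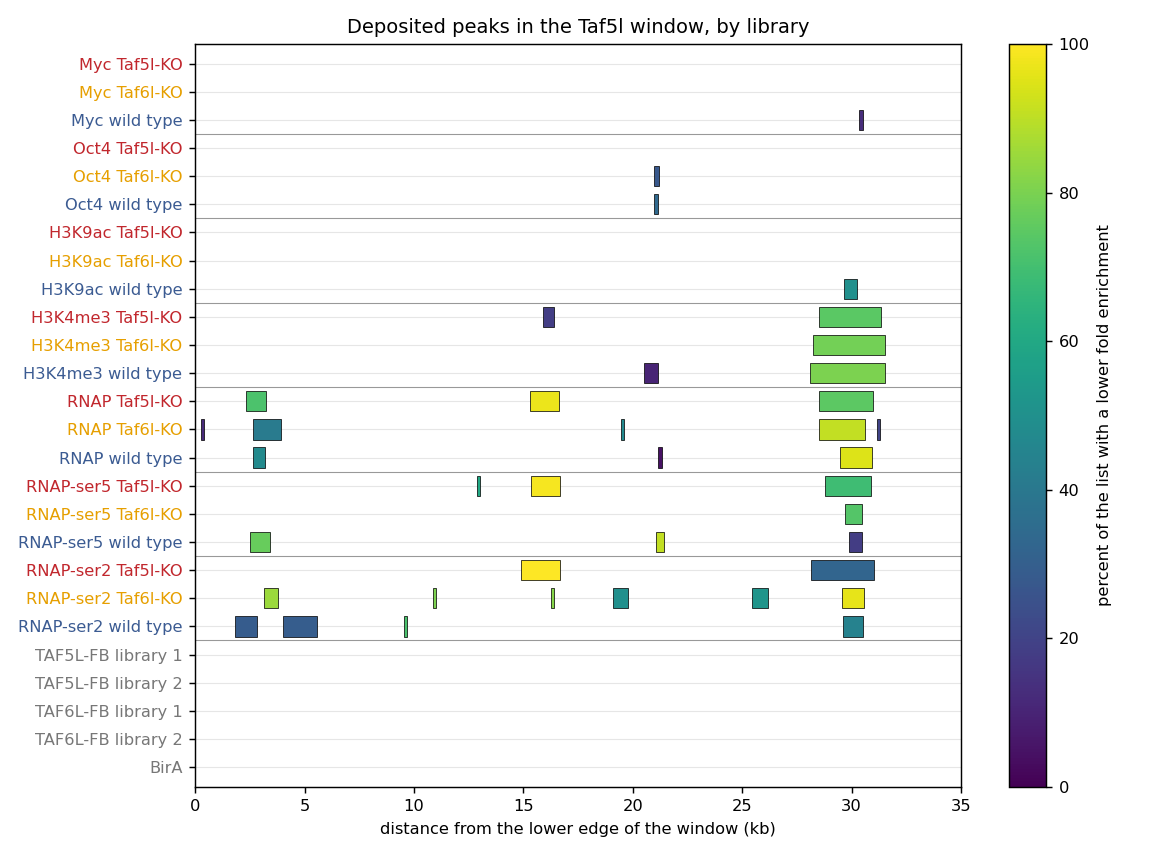
Deposited peaks in the Taf5l window. TAF-FB libraries 1 and 2 are A5 and A6 or 15 and 9, rows are the 26 libraries, the x axis is the distance in kb from the lower edge of the window, and colour is the percent of the library's own list with a lower fold enrichment. The place near 30 kb is listed in all 3 genotypes, and the yellow polymerase peaks near 16 kb are those of Taf5l-KO.

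RNAP there covered chr8:126543498-126545960 in Taf5l-KO (fold enrichment 6.21, rank 5186 of 20583), chr8:126543491-126545595 in Taf6l-KO (9.14, rank 2493 of 26734) and chr8:126544456-126545940 in wild type (8.55, rank 1499 of 29370). In wild type and Taf6l-KO it was the strongest RNAP peak of the window, while in Taf5l-KO another place, described below, was stronger. RNAP-ser5, the early form, was listed over 2106 bp in Taf5l-KO (4.41), 770 bp in Taf6l-KO (4.73) and 580 bp in wild type (3.15). RNAP-ser2, the elongating form, was listed over 2885 bp in Taf5l-KO (3.56), 995 bp in Taf6l-KO (7.09) and 900 bp in wild type (3.72). For all 3 forms the Taf5l-KO peak was the widest of the genotypes. Its RNAP and RNAP-ser5 libraries were also called on the most tags after scaling, 6245652 in each, against 5923469 and 1702363 in Taf6l-KO and 5174150 and 3871824 in wild type. The RNAP-ser2 library of Taf5l-KO was called on 5390622 tags, more than the 3842867 of Taf6l-KO but fewer than the 6295522 of wild type. The part of depth in these widths was not tested.

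Myc and H3K9ac at this place were listed in wild-type cells and in neither knockout. The Myc peak lay at chr8:126545319-126545507 with its summit at 126545441 and a fold enrichment of 6.09, rank 462 of the 538 wild-type Myc peaks. It lay inside the H3K4me3 and RNAP peaks. The H3K9ac peak at chr8:126544637-126545252 stopped 66 bp short of it and had a fold enrichment of 4.81, rank 2078 of 4131. The Myc peak was thus among the weaker ones of its list and the H3K9ac peak near the middle. Missing from both knockouts was the usual state of such peaks, since no peak of either knockout overlapped 95.2% of all wild-type Myc peaks and 80.7% of all wild-type H3K9ac peaks. With shares this high over the whole lists, both missing peaks are no result particular to Taf5l. The knockout lists were short, with 34 Myc peaks in Taf5l-KO and 23 in Taf6l-KO, and 110 and 898 H3K9ac peaks. The fragment modelled for Myc was 51 bp in Taf5l-KO and 50 bp in Taf6l-KO, near the tag size of 50 bp, against 95 bp in wild type. Whether these shares reflect lost binding or poor libraries was not tested. The nearest H3K9ac peak outside the window was 888 kb away from it in each knockout.

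The strongest polymerase peaks of the Taf5l window were listed in Taf5l-KO cells, away from the promoter-like place. RNAP covered chr8:126530292-126531648 (1357 bp) with a fold enrichment of 10.5, rank 584 of 20583. RNAP-ser2 covered chr8:126529898-126531684 (1787 bp) with 10.4, rank 74 of 31583. RNAP-ser5 covered chr8:126530352-126531668 (1317 bp) with 7.91, rank 263 of 22190. All 3 forms were thus near the top of their lists, with 97.2%, 99.8% and 98.8% of the peaks of the RNAP, RNAP-ser2 and RNAP-ser5 lists below them. By its tag count the same input served every Taf5l-KO list, so the 3 forms are not independent of each other. No wild-type peak of any of the 7 antibodies was listed in this place. In Taf6l-KO only a 136 bp RNAP-ser2 peak lay in it, at chr8:126531282-126531417, with a fold enrichment of 4.72 and rank 7793 of 42451.

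The RNAP peak led all 5619 RNAP peaks of Taf5l-KO that no wild-type RNAP peak overlapped, and the RNAP-ser2 peak led all 15728 of its kind, while the RNAP-ser5 peak was number 20 of 10713. Such peaks made up 27.3%, 49.8% and 48.3% of the RNAP, RNAP-ser2 and RNAP-ser5 lists of Taf5l-KO, so their presence alone is common, and the window was chosen for them. An H3K4me3 peak of Taf5l-KO lay inside the RNAP peak as well, at chr8:126530908-126531413 (506 bp). It was weak, with a fold enrichment of 4.23 and rank 26315 of 32098, and 2068 of the 4563 H3K4me3 peaks of Taf5l-KO without a wild-type partner, 14.2% of the list. Of the 5619 RNAP peaks, 224 (3.99%) also overlapped RNAP-ser5 and RNAP-ser2 peaks without a wild-type partner, and 8 (0.142%) an H3K4me3 peak of that kind too. The peak in the Taf5l window had the highest fold enrichment of these 8, the next having 5.82. Because the window was chosen for such polymerase peaks, these shares and this order are also only a description. In Taf6l-KO 156 of 8881 (1.76%) overlapped both polymerase forms and 4 (0.045%) also H3K4me3, with fold enrichments up to 5.19, and none of them lay in either window.

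**Figure D2:**
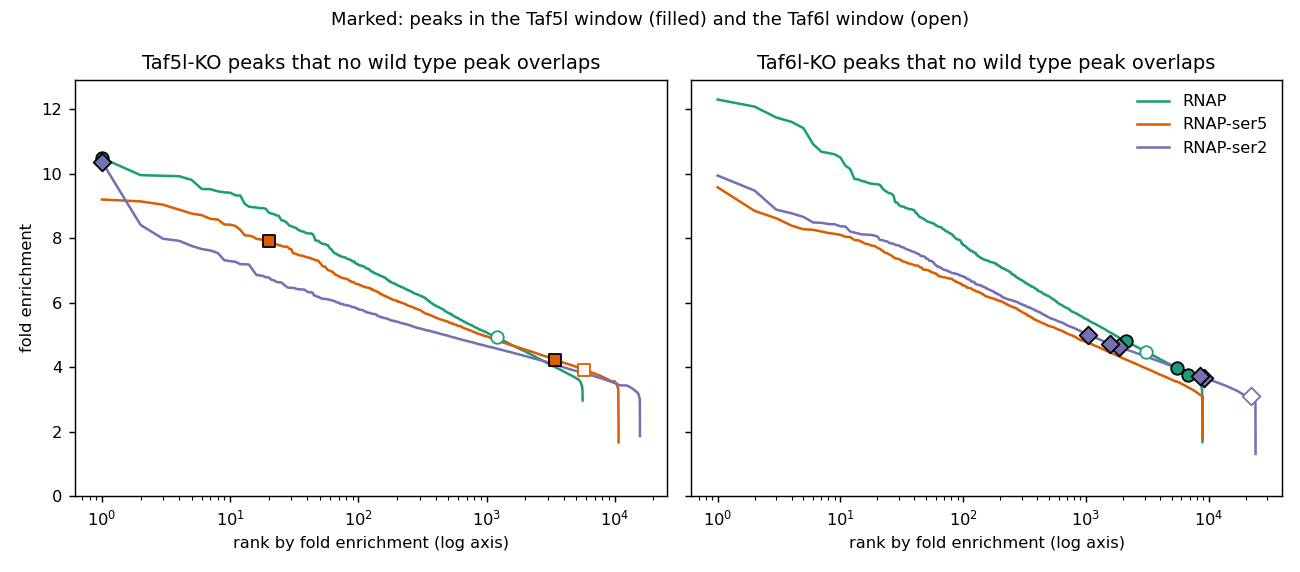
Polymerase peaks that no wild-type peak of the same antibody overlaps, sorted by fold enrichment (y axis) with their rank on a log x axis, for Taf5l-KO (left) and Taf6l-KO (right). Filled symbols are peaks in the Taf5l window and open symbols those in the Taf6l window. The Taf5l window holds rank 1 for RNAP and RNAP-ser2 in Taf5l-KO, and its peaks in Taf6l-KO start at rank 1038.

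The gap between this RNAP peak and the H3K4me3 peak of the promoter-like place was 11.9 kb in Taf5l-KO. For comparison, the RNAP peak at the promoter-like place in the same cells had rank 5186 and the RNAP-ser2 peak there rank 21424. The distal place thus stood above the promoter-like place in both lists, and also for RNAP-ser5 (rank 263 against 6866). As given above, the RNAP and RNAP-ser5 libraries of Taf5l-KO were called on more tags than those of wild type and its RNAP-ser2 library on fewer. The part of depth in the distal peaks was not tested. The knocked-out interval is not given in the sources used here, so whether the distal place touches it, or sequence brought in to make the knockout, is unknown.

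Another place, at chr8:126535509-126536443, held the Oct4 peak of the window. Oct4 was listed at chr8:126535992-126536213 in Taf6l-KO (fold enrichment 6.76, rank 1460 of 2049) and at chr8:126535982-126536150 in wild type (6.96, rank 1557 of 2564), with summits 41 bp apart. Taf6l-KO lacked 53.5% of all wild-type Oct4 peaks and kept this one. The Taf5l-KO list had no Oct4 peak in the window, and its nearest one was 62.0 kb away. This list is the longest of the 3, with 3034 peaks, and it lacked 40.9% of all wild-type Oct4 peaks, so a missing wild-type Oct4 peak was common. In wild-type cells alone, peaks of 3 other antibodies lay at or beside the Oct4 peak. These were the strongest wild-type RNAP-ser5 peak of the window, at chr8:126536041-126536443 (4.42, rank 4209 of 45366), a weak H3K4me3 peak at chr8:126535509-126536140 (3.53, rank 29139 of 32370), and a weak RNAP peak at chr8:126536174-126536322 (rank 28066 of 29370), which began 23 bp beyond the Oct4 peak. None of these 3 had a partner in either knockout, as for 67.8% of all wild-type RNAP-ser5 peaks, 12.3% of H3K4me3 and 35.2% of RNAP peaks. The wild-type Oct4 peak lay 6.97 kb below the wild-type H3K4me3 peak of the promoter-like place.

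Near the lower edge of the window, chr8:126516804-126518933 held polymerase in all 3 genotypes. RNAP was listed at chr8:126517329-126518251 in Taf5l-KO (5.96), chr8:126517628-126518933 in Taf6l-KO (4.59) and chr8:126517657-126518200 in wild type (4.28). RNAP-ser2 was listed in Taf6l-KO, at chr8:126518152-126518795 (5.01), and in wild type, at chr8:126516804-126517816 (3.52), and RNAP-ser5 only in wild type (3.93). No histone mark or factor was listed there.

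Over the whole Taf5l window, 8 of 12 polymerase peaks of Taf6l-KO had no wild-type partner of the same form, against 48.6% over the 3 whole lists, and 4 of 8 in Taf5l-KO, against 43.1%, a count from which nothing is read because it chose the window. The Taf6l-KO lists as a whole had no wild-type partner for 33.2% of RNAP, 52.6% of RNAP-ser5 and 56.7% of RNAP-ser2 peaks. Those in the window were 3 RNAP peaks of 130 to 147 bp, chr8:126534469-126534611 (4.82), chr8:126546166-126546312 (3.98) and chr8:126515282-126515411 (3.76), no RNAP-ser5 peak, and 5 RNAP-ser2 peaks, led by the one at the lower edge, the one inside the distal place and chr8:126525864-126526004 (4.62). Beside the 3 of the distal place, Taf5l-KO had a 142 bp RNAP-ser5 peak at chr8:126527872-126528013 (4.24). Of these 8 and 4 peaks, 6 were at most 20 bp wider than the modelled fragment, and none of the 8 in Taf6l-KO ranked above 1038 among the peaks of its list without a wild-type partner. Wild-type RNAP-ser2 had 2 further peaks without a partner in either knockout, chr8:126519030-126520562 (3.53) and chr8:126524528-126524663 (4.17), as for 51.5% of that list. In all, 6 of the 10 wild-type polymerase peaks of the window had no partner in Taf5l-KO and 6 of 10 none in Taf6l-KO, close to the 63.4% and 64.5% of the whole lists. The peak nearest to an edge was chr8:126515282-126515411, 282 bp inside, and the nearest peak left out was RNAP-ser2 of Taf5l-KO at chr8:126550311-126551032 (3.35), 311 bp beyond the upper edge. At the Taf6l window these distances were 1749 bp inside and 5548 bp outside.

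The Taf6l window differed in what it held. Myc, Oct4 and H3K9ac had no peak in it in any genotype. Their wild-type lists are short, with 538, 2564 and 4131 peaks over the genome, against 32370 for H3K4me3. Their absence from a window of 25 kb is thus read neither as a trait of Taf6l nor against the CACGTG in its promoter shown above. The nearest H3K9ac peak of wild-type cells was 8.04 kb from the window, the nearest Myc peak 41.6 kb and the nearest Oct4 peak 1182 kb. All 38 peaks were H3K4me3 or polymerase, 14 in Taf5l-KO, 11 in Taf6l-KO and 13 in wild type, and 36 of them fell into 2 of 3 places, chr19:8843970-8850303 and chr19:8859570-8861224.

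**Figure D3:**
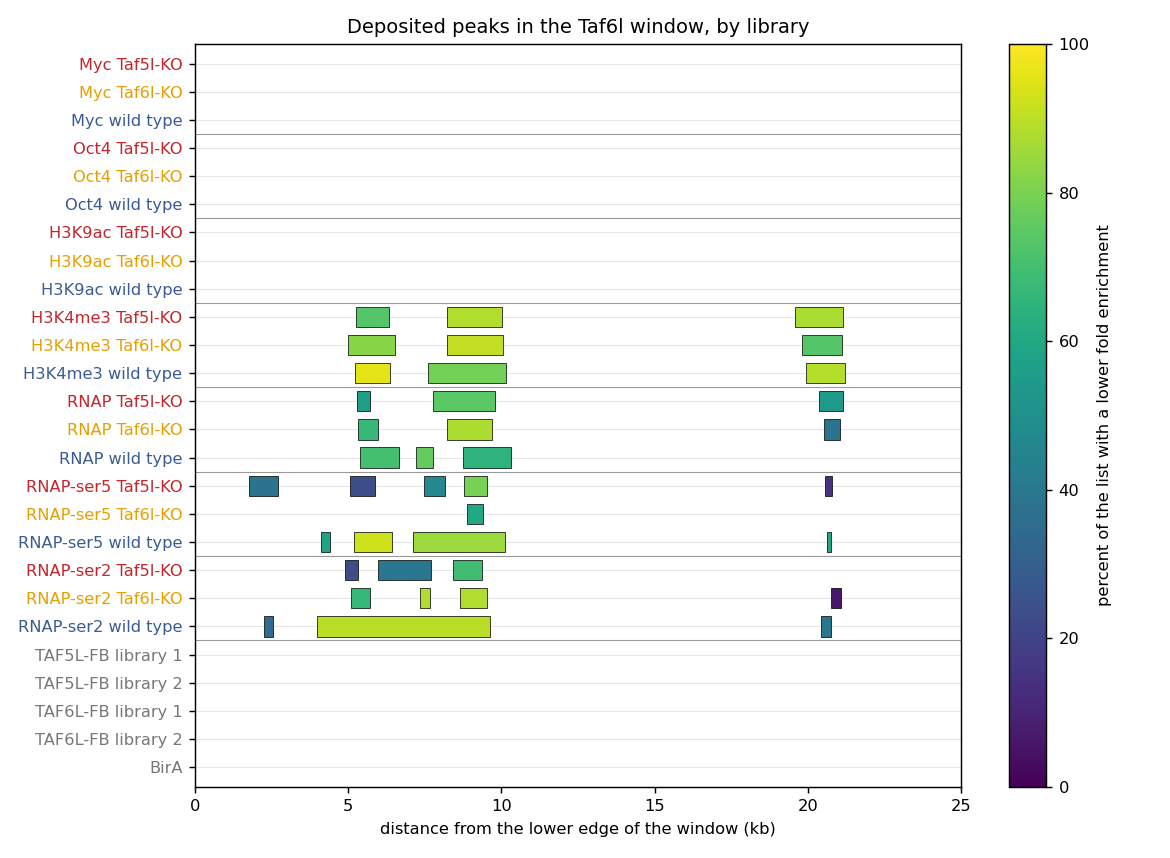
Deposited peaks in the Taf6l window. Rows are the 26 libraries, the x axis is the distance in kb from the lower edge of the window, and colour is the percent of the library's own list with a lower fold enrichment. H3K4me3 stands in the same 3 positions in Taf5l-KO, Taf6l-KO and wild type.

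H3K4me3 had 3 peaks in each genotype, and every wild-type one had a partner in both knockouts. No H3K4me3 peak of Taf5l-KO or Taf6l-KO there was without a wild-type partner, against 14.2% and 10.5% of their lists. The whole lists lacked 15.4% of wild-type H3K4me3 peaks in Taf5l-KO and 19.2% in Taf6l-KO. The first peak lay at chr19:8845244-8846316 in Taf5l-KO (9.05, rank 8600 of 32098), chr19:8844975-8846533 in Taf6l-KO (11.3, rank 5196 of 29463) and chr19:8845218-8846372 in wild type (12.1, rank 1308 of 32370). The second lay at chr19:8848235-8850010 in Taf5l-KO (11.7, rank 3715), chr19:8848213-8850049 in Taf6l-KO (13.3, rank 2662) and chr19:8847611-8850142 in wild type (8.79, rank 6831). The third lay at chr19:8859570-8861162 in Taf5l-KO (11.4, rank 4056), chr19:8859823-8861119 in Taf6l-KO (9.62, rank 7854) and chr19:8859935-8861224 in wild type (10.4, rank 3565). Which of the 3 leads differed by genotype, with the second first in both knockouts and the first in wild type. All 9 stood above the median of their lists.

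Polymerase in the Taf6l window lay mostly at the H3K4me3 peaks. At the first and second, RNAP was listed as 2 peaks in Taf5l-KO, 2 in Taf6l-KO and 3 in wild type, the strongest being chr19:8847749-8849779 in Taf5l-KO (6.19, rank 5250), chr19:8848218-8849702 in Taf6l-KO (8.57, rank 3243) and chr19:8847206-8847776 in wild type (5.68, rank 6902). RNAP-ser2 ran through both as 1 peak of 5642 bp in wild type, chr19:8843970-8849611 (4.80, rank 4506 of 43039, and 527 by width). It was broken into 3 peaks of 424 to 1728 bp in Taf5l-KO, the strongest at chr19:8848419-8849354 (4.11), and 3 of 344 to 891 bp in Taf6l-KO, the strongest at chr19:8847333-8847676 (5.40). The wild-type RNAP-ser2 library was called on the most tags of the 3, 6295522, against 5390622 in Taf5l-KO and 3842867 in Taf6l-KO. Its list held 43039 peaks, against 31583 in Taf5l-KO and 42451 in Taf6l-KO. The part of depth in these widths was not tested.

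RNAP-ser5 in the Taf6l window was listed as 5 peaks in Taf5l-KO, 1 in Taf6l-KO and 4 in wild type. The strongest were chr19:8848765-8849516 in Taf5l-KO (4.69, rank 4578 of 22190), chr19:8848864-8849404 in Taf6l-KO (4.21, rank 6831 of 17000) and chr19:8845202-8846440 in wild type (4.53, rank 3441 of 45366). The Taf6l-KO library was called on 1702363 tags, against 3871824 in wild type, and it also gave a single peak in the Taf5l window, against 3 in wild type. The Taf5l-KO library, called on 6245652 tags, gave 3 there. The part of depth was not tested.

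At the third H3K4me3 peak RNAP was listed in both knockouts and not in wild type, at chr19:8860359-8861144 in Taf5l-KO (4.93, rank 1201 of the 5619 without a wild-type partner) and at chr19:8860524-8861055 in Taf6l-KO (4.48, rank 3099 of 8881). Polymerase was not missing there in wild type, since RNAP-ser5 at chr19:8860615-8860755 (3.62) and RNAP-ser2 at chr19:8860442-8860753 (3.66) were listed. The wild-type RNAP library was the shallowest of its 3, with 5174150 tags after scaling. Its list was also the longest, with 29370 peaks against 20583 in Taf5l-KO and 26734 in Taf6l-KO. The part of depth in the missing RNAP peak was not tested. Taf5l-KO had RNAP-ser5 there (3.62) and no RNAP-ser2, and Taf6l-KO had RNAP-ser2 at chr19:8860770-8861073 (3.09), which began 16 bp beyond the wild-type peak, and no RNAP-ser5. The Taf6l-KO RNAP-ser2 peak ranked 22056 of 24075 without a wild-type partner. The last peaks of the window were RNAP-ser5 in Taf5l-KO at chr19:8841749-8842717 (3.92, rank 5801 of 10713) and, inside it, RNAP-ser2 in wild type at chr19:8842261-8842533 (3.61).

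**Figure D4:**
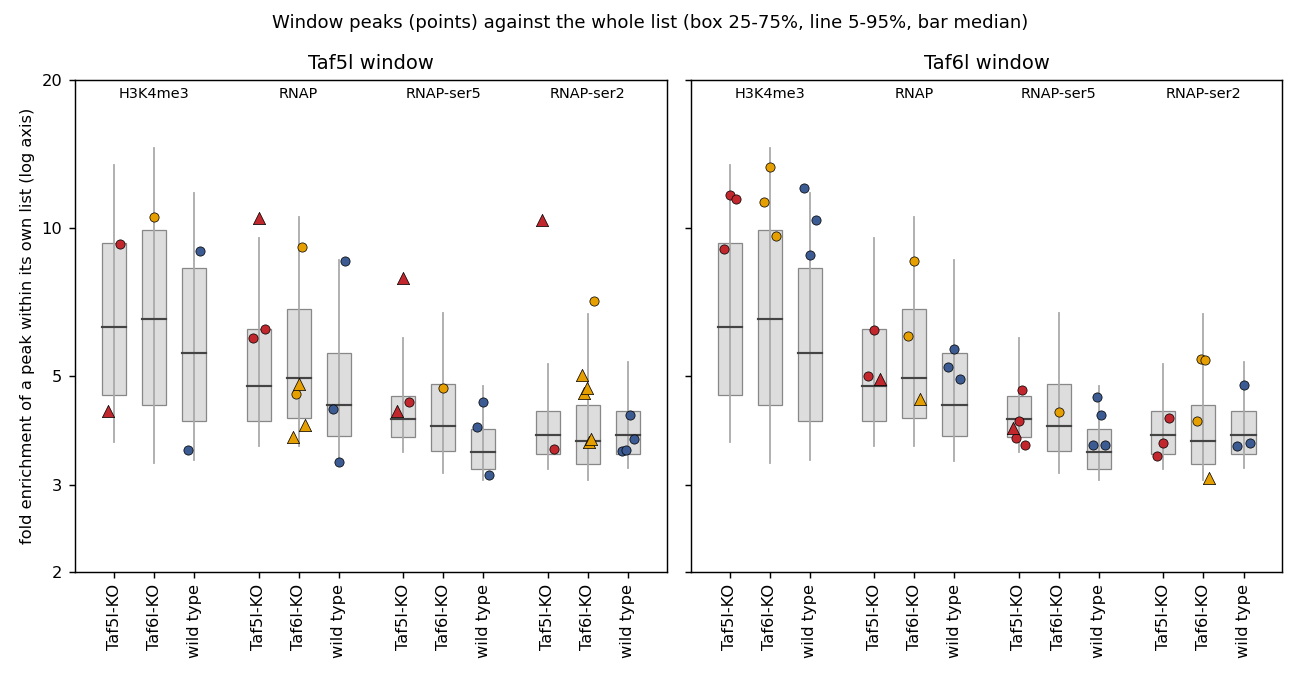
Fold enrichment of the window peaks within their own list (log y axis) for H3K4me3 and the 3 polymerase antibodies in Taf5l-KO, Taf6l-KO and wild type. Circles are wild-type peaks or knockout peaks overlapped by one, and triangles are knockout peaks without a wild-type partner, over boxes of the whole list. The 3 red triangles near 8 to 10 in the left panel are the distal place of the Taf5l window.

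The windows of the knocked-out genes were then set beside those of the intact ones. In the Taf5l window Taf5l-KO had 4 polymerase peaks of 8 without a wild-type partner, and in the Taf6l window Taf6l-KO had 2 of 8. The gene left intact gave 8 of 12 in the Taf5l window of Taf6l-KO and 2 of 11 in the Taf6l window of Taf5l-KO. Counts in the Taf6l window were thus under the 43.1% and 48.6% of the whole lists, on few peaks. Wild-type polymerase peaks without a knockout partner in the Taf6l window numbered 3 of 10 in Taf5l-KO, against 63.4% of the whole lists, and 6 of 10 in Taf6l-KO, against 64.5%. Without RNAP-ser5, whose Taf6l-KO library was the shallowest, the Taf5l window gave 2 peaks without a wild-type partner in Taf5l-KO and 8 in Taf6l-KO, and the Taf6l window 1 and 2. The 2 are the distal peaks for which the window was chosen. The 8 were 3 of 5 RNAP and 5 of 6 RNAP-ser2 peaks. Over the whole RNAP and RNAP-ser2 lists the shares were 27.3% and 49.8% in Taf5l-KO, and 33.2% and 56.7% in Taf6l-KO. Nothing is read from these few peaks.

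In the Taf5l window RNAP peaks covered 4.74 kb in Taf5l-KO, 3.83 kb in Taf6l-KO and 2.18 kb in wild type. RNAP-ser2 covered 4.67 kb in Taf5l-KO, 3.32 kb in Taf6l-KO and 3.58 kb in wild type, and RNAP-ser5 3.57, 0.77 and 1.91 kb in Taf5l-KO, Taf6l-KO and wild type. In the Taf6l window the order was not the same, with RNAP over 3.25 kb in Taf5l-KO, 2.64 kb in Taf6l-KO and 3.41 kb in wild type, and RNAP-ser2 over 3.09, 2.16 and 6.23 kb in Taf5l-KO, Taf6l-KO and wild type. RNAP-ser5 covered 3.48 kb in Taf5l-KO, 0.541 kb in Taf6l-KO and 4.67 kb in wild type there. H3K4me3 covered 3.30 kb in Taf5l-KO, 3.30 kb in Taf6l-KO and 4.03 kb in wild type in the Taf5l window, and 4.44, 4.69 and 4.98 kb in Taf5l-KO, Taf6l-KO and wild type in the Taf6l window. The Taf5l window was chosen for the distal peaks, and without that place RNAP covered 3.39 kb in Taf5l-KO, 3.83 kb in Taf6l-KO and 2.18 kb in wild type, and RNAP-ser2 2.89 kb in Taf5l-KO, 3.19 kb in Taf6l-KO and 3.58 kb in wild type. RNAP-ser5 then covered 2.25 kb in Taf5l-KO, 0.77 kb in Taf6l-KO and 1.91 kb in wild type, so that Taf5l-KO led for RNAP-ser5 only. With peaks of −log10 q of at least 5 alone, RNAP covered 2.03 kb of the Taf6l window in Taf5l-KO, 2.11 kb in Taf6l-KO and 0.571 kb in wild type, and RNAP-ser5 and RNAP-ser2 had no peak there in any genotype. The order of the genotypes by RNAP cover of the Taf6l window thus changed with the threshold. RNAP in the Taf5l window, with the distal place included, kept its order, with 4.743 kb in Taf5l-KO, 2.105 kb in Taf6l-KO and 1.485 kb in wild type. RNAP-ser2 there did not, with 1.787, 0.995 and 0.0 kb in the same genotypes. The distal peak made up all 1.787 kb of RNAP-ser2 in Taf5l-KO and 1357 bp of its RNAP cover. Because the window was chosen for these peaks, nothing is read from the lead of Taf5l-KO. H3K4me3 cover of the Taf6l window was unchanged.

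**Figure D5:**
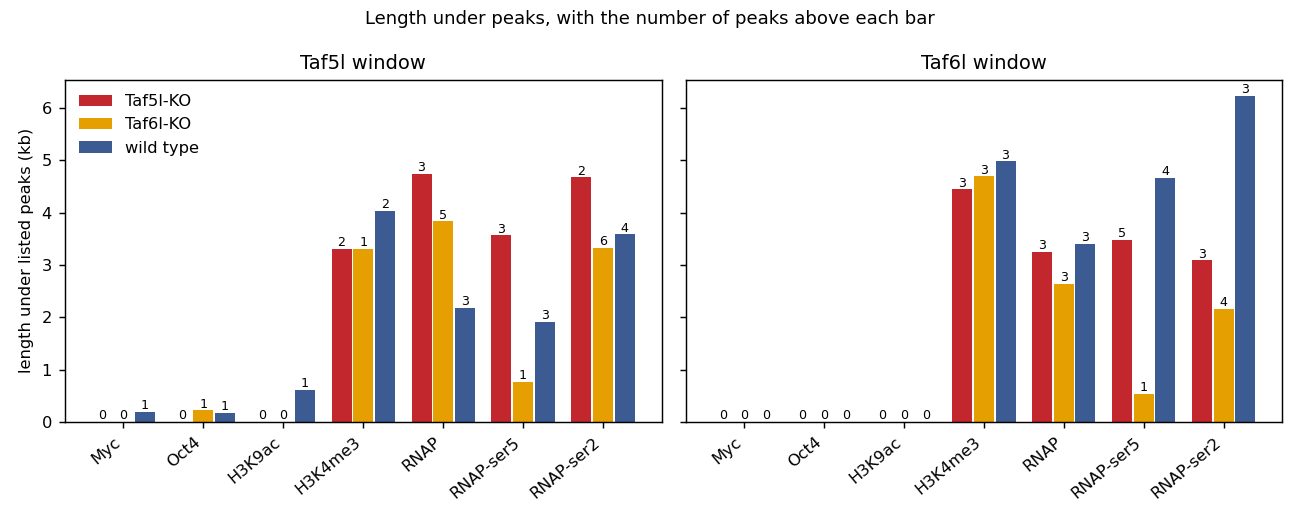
Length in kb under listed peaks by antibody in each window, for Taf5l-KO, Taf6l-KO and wild type, with the number of peaks above each bar. Myc and H3K9ac bars stand in the Taf5l window in wild type only, and the Taf6l window has none for Myc, Oct4 or H3K9ac.

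TAF5L-FB and TAF6L-FB were listed in neither window. TAF5L-FB had 136 peaks in library A5 and 7 in A6, and TAF6L-FB 1140 in library 15 and 628 in 9, but none of these lists, nor the BirA list of 24, had a peak there. The nearest was a TAF6L-FB peak of library 15, 52.1 kb from the Taf6l window, and the same library came nearest to the Taf5l window, at 308 kb. These libraries were the deepest after scaling, and their lists are short, so the absence of a peak says only that none was called.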

How the data were processed

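ChIP-seq peaks were examined around Taf5l and Taf6l in 26 deposited lists, 1 per immunoprecipitated library. There are 32 libraries in all, 6 of them inputs. These inputs are labelled BirA, TAF5L-FB, TAF6L-FB and wild type, and none is labelled as a knockout. Per the file headers, all Taf5l-KO lists were called against an input of 6245652 unique tags. That of Taf6l-KO had 5923469 and that of wild type 7771755. Genotype and input thus cannot be told apart. The aligner was Bowtie2 2.3.2 and the build mm9, per the submitters' processing notes. MACS2 2.1.1.20160309 called each list against an input at a q cutoff of 0.05, keeping 1 tag per position, per the file headers. Broad linking (second cutoff 0.1) was used for the histone marks and polymerase, and a set fragment size of 300 bp for the TAF5L-FB and TAF6L-FB lists, per the file headers.

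The lists give the pileup, a signal, fold enrichment, a ratio to local background, and −log10 p and −log10 q, all as deposited by the authors. These were used to rank peaks within a list. Peaks outside the 19 autosomes, X and Y were set aside. A peak was a member, or had a partner, at 1 bp of overlap. Peaks of any list that overlap were joined into places. Overlap code was tested on 1600 simulated peaks. Python 3.11.15, numpy 2.4.6 and pandas 2.3.3 were used.

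Groups come from sample titles. Members, windows and lists were chosen with earlier results of these data known. Peaks given with positions are the strongest per list and window, up to 3 knockout polymerase peaks per list without a wild-type partner, and all Myc, Oct4 and H3K9ac peaks; others given were chosen after their values were seen. Alternatives were a −log10 q of at least 5, 50% overlap, wider or narrower windows, merging within 1000 bp, other ranking, leaving out the distal place or RNAP-ser5, and leaving out each TAF5L-FB or TAF6L-FB library.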

Additional observations from a re-analysis of the deposited data

How the results depend on the processing

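The zero counts for TAF5L-FB and TAF6L-FB stayed at 0 in both windows under the alternatives tried, but most of these could not have raised them. Only windows widened by 10 kb could have added a peak. The nearest peak was already known to lie 52.1 kb from the Taf6l window and 308 kb from the Taf5l window. The unchanged counts are therefore no sign of robustness. With −log10 q of at least 5 in every list, the peaks of the 7 antibodies in the Taf5l window numbered 6 in Taf5l-KO, 4 in Taf6l-KO and 3 in wild type, and in the Taf6l window 4, 5 and 4. At the caller's threshold the Taf5l window held 10, 14 and 15, so the order of the genotypes turned around. The 6 of Taf5l-KO include the distal RNAP, RNAP-ser5 and RNAP-ser2 peaks for which the window was chosen, so nothing is read from that order. Polymerase peaks without a wild-type partner were then 1 in Taf6l-KO in the Taf5l window. In the Taf6l window they were 0 in Taf5l-KO and 2 in Taf6l-KO. These Taf6l-KO peaks are not those counted before, but peaks whose wild-type partner dropped out at this threshold. In the Taf5l window it is RNAP-ser2 at the promoter-like place, with a −log10 q of 8.02, against 2.04 in wild type. The share over the whole lists at this threshold was not computed, so nothing is read from these counts. With windows widened by 10 kb, the Taf6l window held 23, 17 and 20 peaks in Taf5l-KO, Taf6l-KO and wild type, and 4 polymerase peaks of Taf5l-KO without a partner. With windows narrowed by 5 kb, such peaks numbered 5 in Taf6l-KO in the Taf5l window and 0 in Taf5l-KO and 0 in Taf6l-KO in the Taf6l window, where the RNAP peaks at the third H3K4me3 peak then lay outside. Counting a wild-type peak of any polymerase antibody as a partner left 0 in Taf5l-KO and 1 in Taf6l-KO there. Without RNAP-ser5, an alternative added after the data were seen, the counts were 2 in Taf5l-KO in the Taf5l window and 1 in Taf5l-KO in the Taf6l window. Those 2 are the distal peaks for which the window was chosen. The count of 4 in Taf5l-KO in the Taf5l window stayed at 4 at the stricter threshold, though not by the same peaks, since the wild-type peak near the lower edge dropped out. The distal RNAP, RNAP-ser2 and RNAP-ser5 peaks of Taf5l-KO had 95.1%, 99.7% and 98.3% of their lists below them when ranked by −log10 q and at least 90.1% by pileup. Each percentage of a list below its strongest window peak was compared under several alternatives. In 73 of these comparisons it moved beyond its binomial counting interval, and in 28 it did not. That interval treats the peaks of a list as independent. Of the covered lengths, 21 moved at −log10 q of at least 5 and 7 did not, and leaving out the distal place, an alternative added after the data were seen, changed the order given in the report. No paired analysis was possible because each antibody has 1 library per genotype and the TAF5L-FB and TAF6L-FB numbers only name libraries. RNAP-ser5 in Taf6l-KO was the shallowest library, and the part of depth in its list was not tested.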
